A study of Saccharomyces cerevisiae with 10 samples.

Results

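The *PAU*, *COS* and *YRF1* genes are 3 multicopy families of *Saccharomyces cerevisiae* that lie mostly next to the ends of the chromosomes. They were chosen by standard symbol, as every gene named *PAU* or *COS* followed by a digit or named *YRF1*, and each was found by its systematic name in all 10 deposited tables. This gave 44 genes of 6612 transcripts, namely 24 *PAU* genes, 11 *COS* genes, 8 *YRF1* genes and *COS111*, which shares the letters of the *COS* name only and was kept apart. RNA was compared between BY *UBR1* -469A>T, a BY strain engineered by CRISPR-Swap to carry the RM base at this position of the *UBR1* promoter, and BY, a haploid laboratory strain of mating type a, with 5 cultures of each. The labels name the strain BY4741, and the paper's strain table lists BY, from which the edited strain was made, as deleted for *HIS3* and *HO*. All 10 cultures were grown in parallel in synthetic complete medium to early exponential density and harvested together. How many edited clones the 5 cultures came from is not given in the sources used here.

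*PAU* genes encode seripauperins, small serine-poor mannoproteins related to the Dan and Tir proteins of the cell wall, and are known for being repressed in aerated cells and induced when oxygen or heme is short. *COS* genes encode membrane proteins of endosomes and the vacuole that take part in the ubiquitin-dependent sorting of other membrane proteins into multivesicular bodies. *YRF1* genes encode the helicase of the Y' element, a repeat that adjoins the telomere at many chromosome ends and is known to be amplified and expressed in cells that survive without telomerase. *UBR1* encodes the ubiquitin ligase of the Arg/N-end rule pathway.

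Copies of these families can be nearly or fully alike, and this limits what can be read from a single copy. The short stretches that follow, read from the R64 reference of RefSeq, show how alike some of the copies are. They were not chosen by level alone. *PAU7* and *YRF1-4*, among the copies with the highest levels of their families, are not shown. Each of the first set gives coding bases 1 to 60 of a *PAU* gene, with capitals where the base differs from *PAU6*.
PAU6 (chrXIV:781918-781977, + strand): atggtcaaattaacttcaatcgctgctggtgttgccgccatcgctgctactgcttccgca
PAU18 (chrXII:13386-13445, - strand): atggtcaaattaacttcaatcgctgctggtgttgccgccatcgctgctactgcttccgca
PAU12 (chrVII:1080306-1080365, + strand): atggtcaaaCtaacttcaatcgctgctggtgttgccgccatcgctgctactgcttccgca
PAU17 (chrXII:94747-94806, + strand): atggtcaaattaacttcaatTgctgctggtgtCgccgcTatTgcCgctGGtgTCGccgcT
PAU23 (chrXII:223000-223059, - strand): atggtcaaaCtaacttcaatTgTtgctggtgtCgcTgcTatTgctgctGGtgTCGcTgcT
*PAU6* and *PAU18* are identical over their whole coding sequence, *PAU12* differs from them at 1 base of this stretch, and *PAU17* and *PAU23* differ at 11 and 14.

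The same 60 first bases of the *COS* genes with the highest levels are given with capitals where the base differs from *COS6*.
COS6 (chrVII:1082670-1082729, - strand): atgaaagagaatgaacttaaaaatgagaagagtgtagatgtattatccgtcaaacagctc
COS2 (chrII:811420-811479, - strand): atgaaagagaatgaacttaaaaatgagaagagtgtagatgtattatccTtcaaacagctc
COS3 (chrXIII:7244-7303, + strand): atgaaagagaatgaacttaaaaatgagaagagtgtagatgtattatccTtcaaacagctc
COS8 (chrVIII:6401-6460, + strand): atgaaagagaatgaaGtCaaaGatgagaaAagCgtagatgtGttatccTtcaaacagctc
*COS2* and *COS3* are identical throughout, and *COS8* differs from *COS6* at 7 of these bases.

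In the *YRF1* family the likeness goes further. *YRF1-6* differs from *YRF1-3* and *YRF1-7*, which are identical to each other, at 2 of 5580 coding bases (A4821G and A4832T, counted from the start codon, with the base of *YRF1-3* first). Coding bases 4797 to 4856 hold both differences, shown as capitals.
YRF1-6 (chrXIV:1095-1154, - strand): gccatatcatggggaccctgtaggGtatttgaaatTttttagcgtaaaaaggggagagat
YRF1-3 (chrVII:1089808-1089867, + strand): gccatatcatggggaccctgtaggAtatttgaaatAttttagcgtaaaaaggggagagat
YRF1-7 (chrXVI:1004-1063, - strand): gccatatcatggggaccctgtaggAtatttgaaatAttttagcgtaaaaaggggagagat

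Kallisto, the program with which the authors counted reads, assigns a read by the sequence words of fixed length that it shares with each transcript, and splits the reads that fit several transcripts between them. The share of 31-base words that a copy holds alone among the coding sequences searched was therefore used as a rough guide to its own sequence. It is not the share of the count that rests on that sequence, since a read is placed by all its words together. Of the 24 *PAU* genes, 7 had no such word and the median share was 17.9%. The highest shares belonged to *PAU5* with 89.7%, *PAU7* with 81.2%, *PAU23* with 80.3% and *PAU17* with 73.0%. Among the 11 *COS* genes the median was 23.2%, with none in *COS2* and *COS3* and 100% in *COS10* and *COS12*. Of the 8 *YRF1* genes, 6 had no word of their own and the others had 1.24% (*YRF1-2*) and 1.68% (*YRF1-4*). Between 86.4% and 92.7% of the words of each *YRF1* copy also occurred in coding sequences outside the family, in parts of Y' elements that carry other systematic names. In all, 13 members had an identical twin, in 6 groups, and the tables gave such twins the same estimated count in every library.

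**Figure D1:**
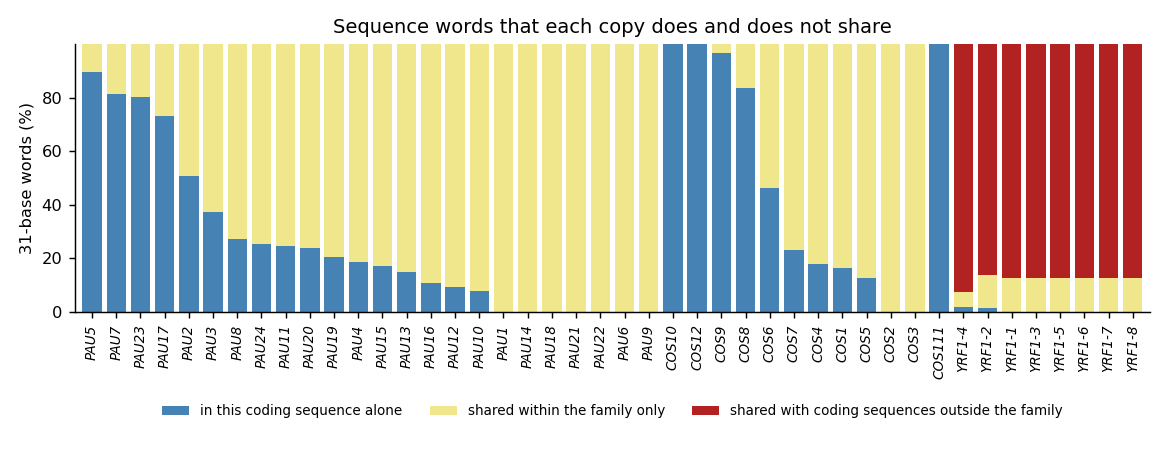
Share of 31-base words (percent, vertical axis) that each coding sequence holds alone, shares only within its family, or shares with coding sequences outside the family, for the 44 genes. The *YRF1* bars are almost without words of their own, from 0% to 1.68%, while *COS10*, *COS12* and *COS111* stand at 100%.

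Libraries held between 71103539 and 97644549 estimated counts in BY *UBR1* -469A>T and between 72105131 and 94432416 in BY. Counts were normalized by edgeR's TMM method, and a transcript was called at an adjusted p under 0.1 by edgeR (quasi-likelihood test, with covariates estimated from the counts as 2 surrogate variables). Of 5987 transcripts with at least 10 counts in every library, 1269 were called (21.2%), 711 of them higher (11.9%) and 558 lower (9.32%) in BY *UBR1* -469A>T. Without surrogate variables edgeR called 0, with 1400 at an unadjusted p under 0.05 (DESeq2 was run with surrogate variables only and called 1430). With 1 surrogate variable edgeR called 43. The paper, whose fit of these libraries also held extraction batch and culture density, reported far fewer differentially expressed transcripts at the same threshold. The 21.2% is therefore a property of the present fit, not a settled share of transcripts that differ. *UBR1* itself had between 162 and 183 CPM (normalized counts scaled to 1e+06 per library) in BY *UBR1* -469A>T and between 134 and 157 CPM in BY (log2 fold change 0.21, adjusted p = 0.019). Markers of mating type a were abundant in every library, with at least 60985 counts for *STE2*. Of the alpha markers, *MF(ALPHA)1* stayed at 28 to 44 counts and *MF(ALPHA)2* at 8 to 23, while *STE3* had 283 to 545. *HIS3* and *HO* had at least 4876 and 2398 counts in every library of both strains, so that a full loss of these transcripts was not seen. Counts over a whole transcript cannot tell whether part of a gene is deleted, so the deletions listed for BY were not tested. *URA3*, *LEU2* and *MET17*, which the BY4741 strain is known to lack, had at least 9225, 8639 and 14554 counts in every library, which goes against that label. The RNA came from whole cultures, in which fewer cells with a transcript and less transcript per cell cannot be told apart.

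Per length, the *COS* genes were the most abundant of the 3 families. As TPM, which is scaled within each library and corrected for length, the summed level was 281 ± 15.2 in BY *UBR1* -469A>T and 308 ± 25.5 in BY for *COS*, 70.0 ± 9.02 and 81.8 ± 11.3 for *YRF1*, and 60.3 ± 5.75 and 69.0 ± 6.60 for *PAU* (SD, n = 5 each, in the same order of strains). The median transcript of the 6612 had a mean of 18.1 TPM over the 10 libraries. Above it stood 6 *COS* genes led by *COS6* (74.8 TPM), *COS2* and *COS3* (49.8 TPM each), with *COS5* and *COS9* just under it at 17.9 and 17.8 TPM. Of the *YRF1* genes only *YRF1-4*, with 46.9 TPM, lay above it, and no *PAU* gene did.

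Within each family the level was uneven. *PAU23* was the highest *PAU* gene with 14.2 TPM and held between 24.5% and 28.4% of the summed *PAU* count in BY *UBR1* -469A>T libraries and between 24.0% and 28.1% in BY libraries. *PAU7* came next with 10.9 TPM, then *PAU6* and *PAU18* with 8.27 TPM each, *PAU17* with 7.33 TPM and *PAU12* with 3.92 TPM. The *PAU7* level rests on only 16 to 48 counts per library, and Kallisto gave this gene of 168 coding bases an effective length as short as 13.5 bases. Counting error alone leaves the lowest *PAU7* count of 16 with an exact 95% Poisson interval of 9.15 to 26.0. At the other end, *PAU9* was listed at 0 in all 10 libraries, and *PAU8*, *PAU16*, *PAU19* and *PAU20* stayed at 5.44 counts or fewer.

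Most *PAU* genes (19 of 24) lay within 15 kb of a chromosome end, and each of these was transcribed towards that end. The other 5, *PAU2*, *PAU5*, *PAU7*, *PAU17* and *PAU23*, lay between 53.2 and 222.7 kb from the nearest end, and their mean levels ran from 1.46 to 14.2 TPM with a median of 7.33 TPM. Of these 5, *PAU7* had its 10.9 TPM from only 16 to 48 counts per library, so that the median is uncertain. The mean levels of the 19 ran from 0 to 8.27 TPM with a median of 0.71 TPM. The 5 also had more sequence of their own, between 50.8% and 89.7% of words, against at most 37.1% in the 19. *PAU5*, with the highest share, had 1.87 TPM, and *PAU6* and *PAU18*, with no word of their own, had 8.27 TPM each. All 11 *COS* genes lay between 1.71 and 14.5 kb from an end, and 10 of them were transcribed towards the centre of the chromosome, the exception being *COS10*. All 8 *YRF1* genes were transcribed towards the end, 7 of them within 0.43 kb of it and *YRF1-4* (chrXII:1067087-1071235) at 6.94 kb, centromere-proximal to *YRF1-5* on the same arm.

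**Figure D2:**
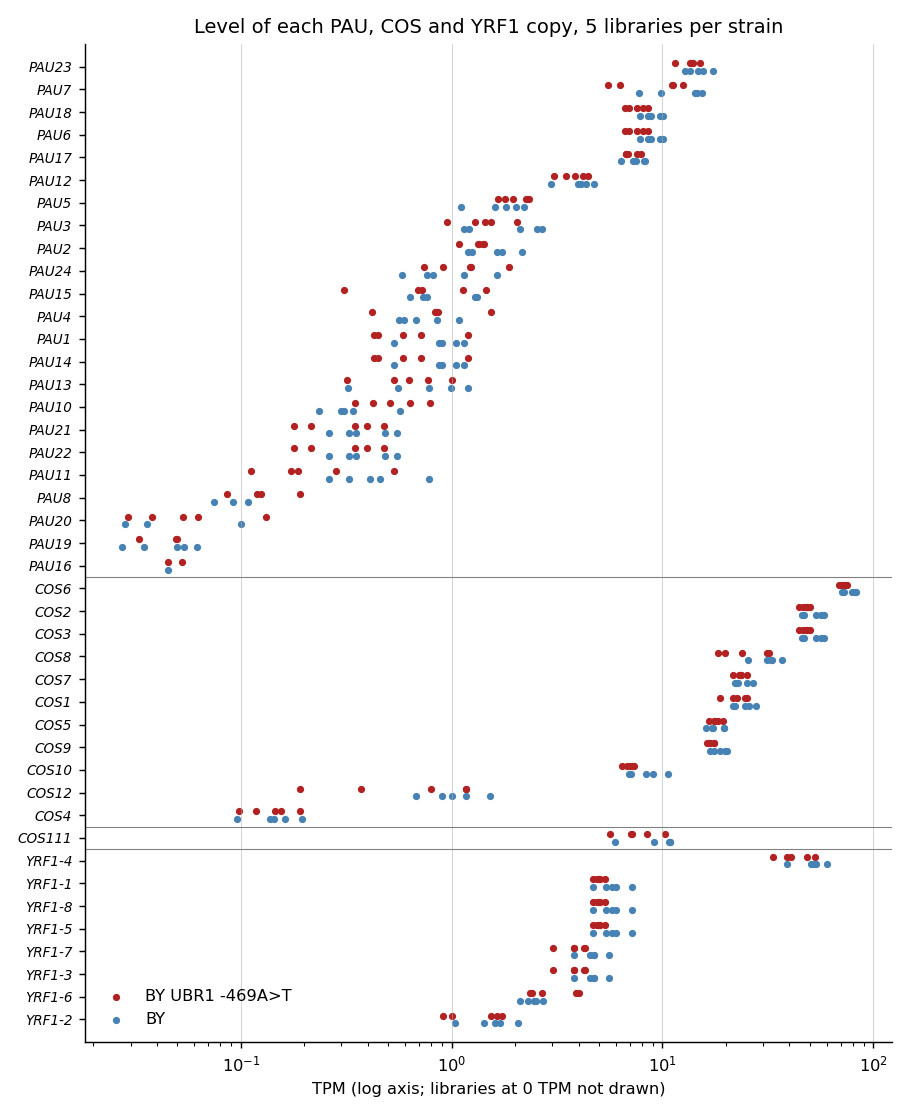
Level of each copy in TPM (horizontal log axis) in the 5 BY *UBR1* -469A>T libraries (upper points of each row) and the 5 BY libraries (lower points), with *PAU9*, at 0 throughout, not drawn. *PAU* levels span from under 0.1 TPM to 17.4 TPM, *COS6* lies at the top of *COS*, and *YRF1-4* stands apart from the 7 other *YRF1* copies.

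The summed level of each family overlapped between the strains. For *PAU*, the 24 copies together had 23.8, 22.7, 20.9, 20.2 and 20.5 CPM in BY *UBR1* -469A>T replicates 1 to 5 and 21.6, 25.4, 23.2, 21.8 and 21.8 CPM in BY replicates 1 to 5. The estimated log2 fold change was -0.011 with a 95% interval from -0.12 to 0.097. The *COS* sum was 719, 688, 674, 636 and 669 CPM in BY *UBR1* -469A>T and 703, 751, 742, 662 and 649 CPM in BY. Its log2 fold change was -0.0013, with an interval from -0.11 to 0.10. The *YRF1* sum was 934, 860, 763, 773 and 691 CPM in BY *UBR1* -469A>T and 994, 965, 876, 884 and 700 CPM in BY. Its log2 fold change was -0.0012, with an interval from -0.096 to 0.094.

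In *YRF1*, cultures of 1 strain differed more than the strains did. Replicate 1 had the highest sum and replicate 5 the lowest in each strain, and the within-strain SD was 0.18 on the log2 scale, against 0.10 for *PAU* and 0.081 for *COS*. At every replicate number the edited *YRF1* sum was below the BY sum, though the numbers were not taken to pair the cultures. With the replicate number as a block and no surrogate variables, the log2 fold change of the *YRF1* sum was -0.13. The intervals hold the 2 surrogate variables as covariates. Without them the log2 fold changes were -0.07 for *PAU*, -0.05 for *COS* and -0.14 for *YRF1*, and as plain ratios of summed TPM they were -0.19, -0.13 and -0.23, beside a median of -0.088 over all tested transcripts on that TPM scale. No p-value is given for a sum. Adding 27 coding sequences that share at least 50% of their words with a *YRF1* copy left the *YRF1* value at -0.027 (SE 0.036), an alternative chosen after seeing the data.

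**Figure D3:**
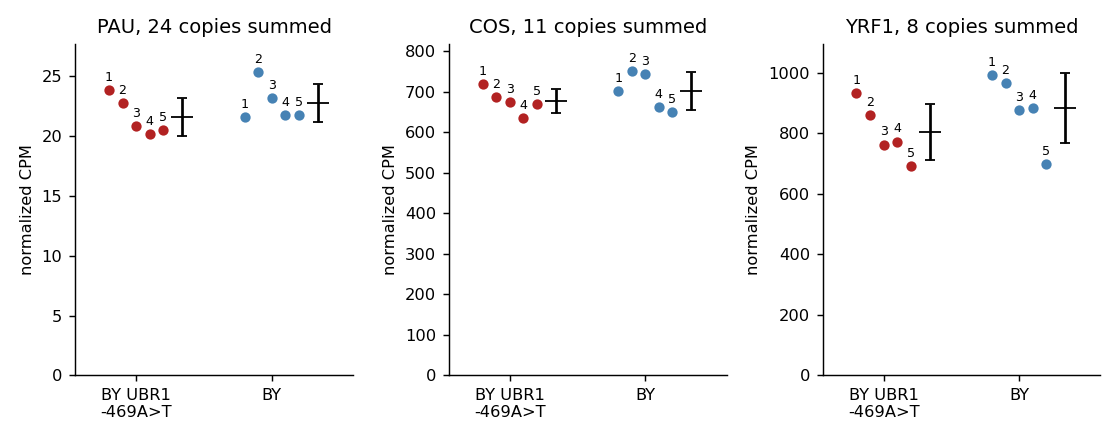
Summed normalized CPM (vertical axis from 0) of the 24 *PAU*, 11 *COS* and 8 *YRF1* copies in each library, with the replicate number above each point and the mean and SD of 5 libraries as a bar. The strains overlap in all 3 panels, and *YRF1* spreads most within each strain, from 691 to 934 CPM in BY *UBR1* -469A>T and from 700 to 994 CPM in BY.

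Of the 44 genes, 36 passed the minimum count (16 *PAU*, 11 *COS*, 8 *YRF1* and *COS111*), and 1 of the 36 was called, *YRF1-6*, against 21.2% of all transcripts tested. The 8 that did not pass were all *PAU* genes, *PAU10*, *PAU11* and *PAU13* besides the 5 nearly silent ones named above. At an unadjusted p under 0.05 there were 3 of the 36 (*YRF1-6*, *COS5* and *COS7*), and DESeq2 also called 1. In none of the 36 did the libraries of the strains separate fully, which 2.92% of all tested transcripts did. The log2 fold change was positive in 19 of the 36 and their median was 0.013, beside 0.0012 over all tested transcripts. Low-count copies could be measured only coarsely. Standard errors ran from 0.085 to 0.32 in *PAU*, from 0.034 to 0.42 in *COS* and from 0.038 to 0.16 in *YRF1*, beside a median of 0.045 over all tested transcripts.

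**Figure D4:**
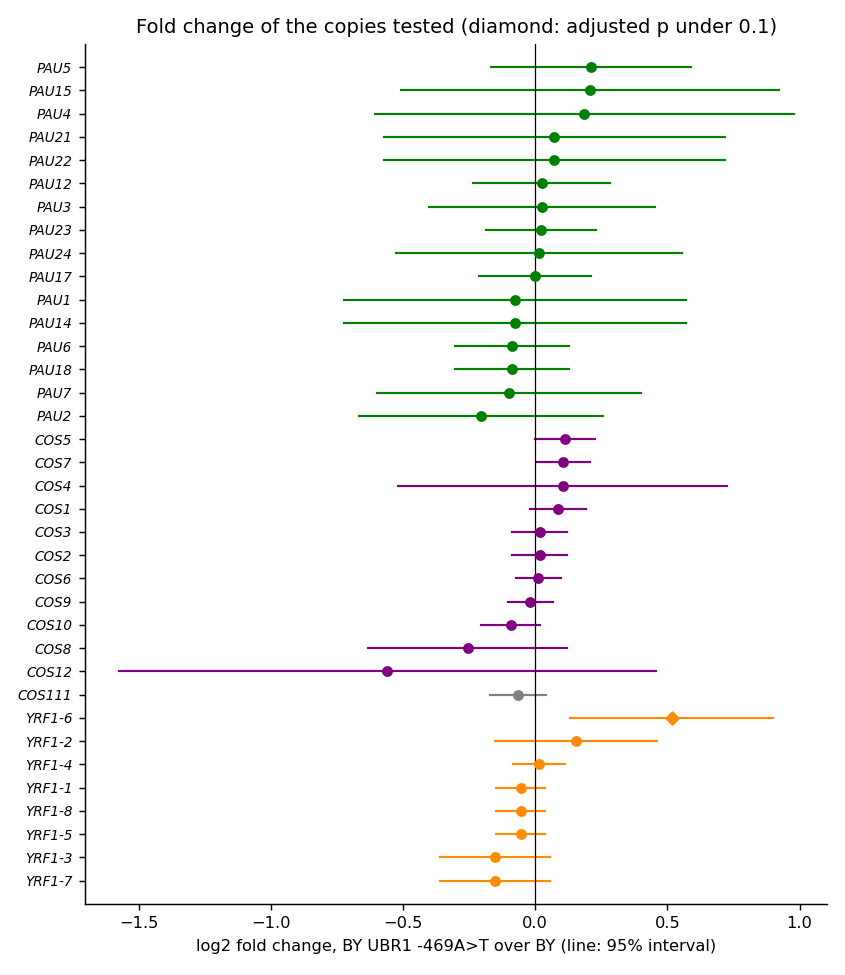
Log2 fold change of BY *UBR1* -469A>T over BY (horizontal axis) with its 95% interval for the 36 copies tested, by family and sorted by value. Only *YRF1-6*, drawn as a diamond, was called, at 0.52, and the *COS12* interval is the widest, from -1.58 to 0.46.

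Of the 16 *PAU* genes tested, 0 were called by edgeR's quasi-likelihood test, 0 reached an unadjusted p under 0.05 and DESeq2 called 0. *PAU23* (chrXII:222685-223059) had 6.44, 5.92, 5.92, 4.95 and 5.79 CPM in BY *UBR1* -469A>T and 5.19, 7.00, 6.19, 6.13 and 5.48 CPM in BY. These ranges overlap almost entirely, and the log2 fold change was 0.02 with an interval from -0.18 to 0.23. *PAU6* and *PAU18* each had 3.24, 3.48, 2.69, 3.05 and 2.67 CPM in BY *UBR1* -469A>T and 3.83, 3.67, 3.27, 3.02 and 3.24 CPM in BY (log2 fold change -0.09, interval from -0.31 to 0.13). *PAU7* had 0.39, 0.44, 0.40, 0.23 and 0.19 CPM in BY *UBR1* -469A>T and 0.34, 0.49, 0.52, 0.49 and 0.27 CPM in BY. Its log2 fold change was -0.10 with an interval from -0.60 to 0.40, so that a difference of this size was not detectable at this depth. The other 12 ranged in log2 fold change from -0.21 (*PAU2*) to 0.21 (*PAU5*).

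None of the 11 *COS* genes was called by edgeR's quasi-likelihood test (0, with 2 at an unadjusted p under 0.05 and 0 called by DESeq2). *COS6* (chrVII:1081584-1082729) had 177, 176, 173, 168 and 173 CPM in BY *UBR1* -469A>T and 182, 184, 183, 165 and 166 CPM in BY. Its spread within strains was the smallest of the 36 members tested, and its log2 fold change was 0.01 with an interval from -0.07 to 0.10. *COS2* and *COS3* each had 118, 116, 117, 108 and 109 CPM in BY *UBR1* -469A>T and 121, 129, 126, 109 and 104 CPM in BY (log2 fold change 0.02, interval from -0.09 to 0.12). *COS5* and *COS7* had log2 fold changes of 0.11 and 0.10, with adjusted p of 0.13 for each, and their libraries overlapped between the strains. Both were called when edited replicate 5 was left out and with 3 surrogate variables. *COS7* was also called without BY replicate 1 or 2, and *COS5* without BY replicate 3. Neither was called without surrogate variables or with 1 of them.

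*COS8* and *COS12*, most of whose words are their own, varied more between cultures than most of the family. *COS8* had 74.4, 57.4, 48.1, 44.8 and 75.1 CPM in BY *UBR1* -469A>T and 57.8, 73.8, 82.0, 72.7 and 74.6 CPM in BY. The lowest values, 44.8 and 48.1 CPM, came from the edited strain, but its replicates 1 and 5 lay with the BY libraries, and the log2 fold change of -0.26 (SE 0.15) had an adjusted p of 0.30. Leaving out edited replicate 1 gave -0.45 (adjusted p = 0.12), and leaving out edited replicate 5 gave -0.28 with a call (adjusted p = 0.027). *COS12* had 1.88, 0.89, 2.85, 0.47 and 2.73 CPM in BY *UBR1* -469A>T and 2.27, 2.00, 3.37, 1.58 and 2.67 CPM in BY. Its spread within strains was larger than that of 99.6% of tested transcripts, and its log2 fold change of -0.56 (SE 0.42) had an adjusted p of 0.41, and was -0.33 without BY *UBR1* -469A>T replicate 2. Over 10 libraries its count ran only from 33 to 312. *COS111* (chrII:629168-631942), which lies 181 kb from a chromosome end, had 67.4, 56.1, 47.6, 48.6 and 36.7 CPM in BY *UBR1* -469A>T and 37.3, 66.3, 66.5, 69.2 and 57.8 CPM in BY. The strains overlapped over most of their ranges, and its log2 fold change was -0.06 (adjusted p = 0.36), and -0.23 and called (adjusted p = 0.056) without BY replicate 1.

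In the *YRF1* family, *YRF1-4* was assigned at least 48.2% of the summed estimated count of the 8 copies in every library. *YRF1-4* has only 1.68% of words of its own, and 92.7% of its words also occur outside the family. It had 530, 496, 418, 406 and 334 CPM in BY *UBR1* -469A>T and 518, 565, 492, 500 and 377 CPM in BY, and its log2 fold change was 0.01 with an interval from -0.09 to 0.11. Without surrogate variables it was -0.17 (adjusted p = 0.43). With the replicate number as a block and no surrogate variables, *YRF1-4* was called at -0.17 (adjusted p = 0.048). Replicate 5 was the lowest library in each strain. *YRF1-1*, *YRF1-5* and *YRF1-8*, which are identical, each had 70.7, 67.5, 63.9, 67.2 and 66.1 CPM in BY *UBR1* -469A>T and 90.9, 74.4, 72.0, 70.5 and 59.9 CPM in BY. Their log2 fold change was -0.05 with an interval from -0.15 to 0.04, with BY replicates 1, 2 and 3 above all edited libraries and BY replicate 5 below them.

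*YRF1-6* (chrXIV:371-6098) had 55.3, 33.6, 55.0, 38.1 and 32.0 CPM in BY *UBR1* -469A>T and 35.9, 31.6, 27.1, 33.8 and 30.4 CPM in BY. Replicates 1 and 3 of the edited strain stood well above all other libraries, while its replicates 2 and 5 lay within the range of BY. The log2 fold change was 0.52 (SE 0.16, adjusted p = 0.054), and an exact two-sided permutation test of the unadjusted log2 CPM gave p = 0.063, where 5 against 5 libraries allow no p below 0.00794. Among the alternatives, the call was lost without BY *UBR1* -469A>T replicate 1 (0.36, adjusted p = 0.24) and without BY replicate 5 (0.62, adjusted p = 0.16). It was lost without surrogate variables (0.43, adjusted p = 0.20) and with 1 of them (0.55, adjusted p = 0.21). With the replicate number as a block and 2 surrogate variables the value fell to 0.067 (adjusted p = 0.95). A threshold of 0.05 also removed the call.

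The copies from which it differs by 2 bases did not show the same pattern. *YRF1-3* and *YRF1-7* each had 58.0, 52.9, 42.6, 54.0 and 58.3 CPM in BY *UBR1* -469A>T and 73.5, 60.7, 60.9, 60.9 and 50.6 CPM in BY, with a log2 fold change of -0.15 (adjusted p = 0.26), which was -0.073 without BY *UBR1* -469A>T replicate 3. Of the edited replicates in which *YRF1-6* was high, these copies were at their lowest in replicate 3 (42.6 CPM) and near their highest edited value in replicate 1 (58.0 CPM). Summed to 1 feature, an alternative chosen after seeing the data, the 3 copies had 171, 139, 140, 146 and 149 CPM in BY *UBR1* -469A>T and 183, 153, 149, 156 and 132 CPM in BY. The log2 fold change of this sum was 0.02 with an interval from -0.12 to 0.16, given with no test. Of the 42 words of *YRF1-6* that *YRF1-3* does not hold, all occur in 5 other Y' coding sequences and 28 in a sixth, so none of them separates *YRF1-6* from the rest of the tables. How Kallisto's split of shared reads enters this call was not tested.

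**Figure D5:**
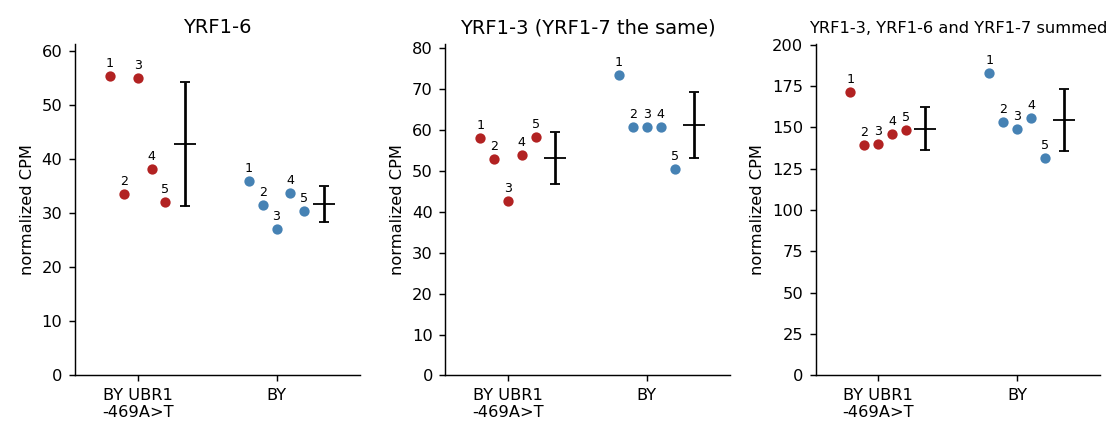
Normalized CPM per library (vertical axes from 0; replicate number above each point; mean and SD of 5 libraries as a bar) of *YRF1-6*, of *YRF1-3* and of *YRF1-3*, *YRF1-6* and *YRF1-7* summed. *YRF1-6* is high in edited replicates 1 and 3, at 55.3 and 55.0 CPM, while the sum overlaps between the strains, from 139 to 171 CPM in BY *UBR1* -469A>T and from 132 to 183 CPM in BY.

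Other genes near chromosome ends were called about as often as transcripts in general. The 168 tested genes within 20 kb of an end and not named in the 3 families include 19 Y' coding sequences that share words with *YRF1*. Of those 19, 1 was called higher and 3 lower. Of all 168, 13 were called higher and 25 lower in BY *UBR1* -469A>T. That is 22.6% beside 21.2% of all tested transcripts, with a median log2 fold change of -0.027 over the 168. The smallest adjusted p belonged to *PHO89*, a phosphate transporter, with a log2 fold change of -1.79 (adjusted p = 7.9e-04), *MAL33*, a maltose activator, with -0.80 (adjusted p = 7.9e-04), *FLO10*, a flocculin, with -0.31 (adjusted p = 0.0015), and *DIA1* with 0.34 (adjusted p = 0.0016). Some called genes were close neighbours of members. On the right arm of chromosome II, the nearest tested gene to *PAU24* (chrII:809057-809419) outside the families was *MAL32*, 1951 bases away. It was called lower, with a log2 fold change of -0.44 (adjusted p = 0.014). *MAL33* and *PHO89* lie further from *PAU24*, at 7.13 and 10.5 kb, and *COS2* lies beyond *PAU24*. *PAU24* had 0.29, 0.51, 0.37, 0.49 and 0.72 CPM in BY *UBR1* -469A>T and 0.31, 0.29, 0.22, 0.44 and 0.62 CPM in BY. The strains overlapped over most of this range, and its log2 fold change was 0.01 with an interval from -0.53 to 0.56. Counted over the nearest tested gene outside the families on each side of every member, 7 of 51 neighbours were called higher and 9 lower, 31.4% in all beside 21.2% of all tested transcripts. Some of the called neighbours are Y' coding sequences, whose counts are not independent of *YRF1*.

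Genes tied to *PAU* by function or regulation were read beside the 21.2% of all tested transcripts, in lists of only 6 to 10 genes. Of 6 tested *DAN* and *TIR* genes, whose mannoproteins resemble those of *PAU*, 2 were called higher and 0 lower (33.3%), namely *TIR1* with a log2 fold change of 0.17 (adjusted p = 0.021) and *TIP1* with 0.16 (adjusted p = 0.050). Their median was 0.09. Of 10 regulators of hypoxic genes, 1 was called higher and 1 lower (20%). *ROX1*, the heme-dependent repressor of hypoxic genes, had a log2 fold change of 0.35 (adjusted p = 0.0026), and *ECM22*, an activator of sterol genes, had -0.12 (adjusted p = 0.031). Among 10 other hypoxic genes, 2 were called higher and 1 lower (30%). *AAC3*, an ADP/ATP carrier of mitochondria, had 0.28 (adjusted p = 0.038), *ANB1*, a form of the translation factor eIF5A, had 0.20 (adjusted p = 0.056), and *OLE1*, the fatty acid desaturase, had -0.21 (adjusted p = 0.0063).

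For *COS* and *YRF1* the lists held 7 to 19 genes, beside the same 21.2%. Of 10 *DUP240* genes, relatives of *COS*, 1 was called, *KTD1*, which protects against the K28 killer toxin, with a log2 fold change of 0.35 (adjusted p = 0.0015), and 9 of the 10 values were positive, with a median of 0.07. Of 17 genes of the ESCRT complexes and multivesicular body sorting, edgeR called 0, with 1 at an unadjusted p under 0.05 and 0 called by DESeq2. Of 12 genes for silencing and telomere end proteins, 1 was called, the histone acetyltransferase *SAS2* with 0.14 (adjusted p = 0.062). For the 7 genes of telomerase and the Cdc13 complex, edgeR called 0, with 0 at an unadjusted p under 0.05 and 0 called by DESeq2. Of 19 tested Y' coding sequences outside *YRF1*, 1 was called higher and 3 lower (21.1%), with a median of -0.049.

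The upstream sequences were searched for 2 motifs of regulators of anaerobic genes, on both strands over the 500 bases before each start codon. Neither motif contains the other. The core letters TCGTATA, bound by Upc2 and Ecm22, occurred upstream of 9 of 24 *PAU* genes (37.5%), 1 of 11 *COS* genes and 3 of 8 *YRF1* genes, against 420 of 6000 genes in all (7.00%). Copies of a family share upstream sequence, so these are not independent occurrences. In *PAU23*, *PAU5*, *PAU12* and *PAU24*, which lie on 4 chromosomes, the motif began 271, 252, 262 and 262 bases before the start codon. It is shown in capitals with 20 bases on each side, in the direction of the gene, and reads as the reverse complement in *PAU23* and *PAU5*.
PAU23 (chrXII:223304-223350, - strand): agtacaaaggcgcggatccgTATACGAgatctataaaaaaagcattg
PAU5 (chrVI:99825-99871, - strand): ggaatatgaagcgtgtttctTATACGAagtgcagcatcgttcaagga
PAU12 (chrVII:1080024-1080070, + strand): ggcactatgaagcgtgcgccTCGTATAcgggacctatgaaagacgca
PAU24 (chrII:808775-808821, + strand): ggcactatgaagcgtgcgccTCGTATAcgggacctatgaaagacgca
The windows of *PAU12* and *PAU24* shown here are the same, and *PAU12* was counted at 3.92 TPM and *PAU24* at 1.09 TPM. The coding sequences of the 2 genes share 62.8% of their words, and *PAU24* had only 20 to 64.1 counts per library. How Kallisto's split of shared reads enters these levels was not tested. The letters ATTGTTC of the Rox1 site occurred upstream of 2 of 24 *PAU* genes (*PAU17* and *PAU20*), 0 of 11 *COS* genes and 0 of 8 *YRF1* genes, against 11.8% of all genes.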

How the data were processed

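Polyadenylated RNA of 10 yeast cultures was analysed, 5 of BY *UBR1* -469A>T and 5 of BY, grouped by the genotype in the sample labels. The authors trimmed reads with fastp and pseudoaligned them with Kallisto to Ensembl release 96 transcripts, whose assembly is not named in the sources used here. The estimated counts that the authors deposited are not normalized and were rounded here. The TPM that the authors deposited are scaled within a library and entered no test. Of 6612 transcripts, 5929 matched R64 by systematic name, and 5908 of 5917 coding lengths were equal. Coordinates and sequences come from R64. Word sharing was computed over 5917 coding sequences, and 695 transcripts were not searched.

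Transcripts reaching 10 counts in all libraries, with effective lengths of 1 or more, were tested with edgeR 4.0.16 (R 4.3.3, quasi-likelihood, TMM scaling), using 2 surrogate variables from sva 3.50.0, Benjamini-Hochberg adjustment over 5987 transcripts and a threshold of 0.1. The study itself fitted DESeq2 with batch of extraction, culture density and surrogate variables. Batch and density were not used here, because the labels do not give them per sample. Intervals of 95% use the standard error and 6 residual degrees of freedom. Family sums were fitted as features in place of their copies and carry no p. Alternatives were DESeq2 1.42.0, other scalings, minimum counts, thresholds and numbers of surrogate variables, a replicate block, summed identical copies, and each library left out. Replicates of a strain were all distinct libraries, as chi-square over degrees of freedom was at least 67.5 for every pair. The procedure was run on simulated data of 5987 transcripts, 200 of them changed, and made 26 false calls. How calls in the real data change with surrogate variables was not addressed by that run. Whether Kallisto was run with strand is not given in the sources used here, so reads from an antisense or overlapping transcript cannot be told apart.

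Values were given in every library for the family sums, for called members, for the 3 highest members of each family by TPM and for *COS111*. *COS5*, *COS7*, *COS8*, *COS12*, *PAU24*, *YRF1-3*, *YRF1-7* and the neighbour *MAL32* were named after their values were seen. At most 4 called genes were named per context list, *MAL32* aside. The members and lists were chosen with earlier results of these data known.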

Additional observations from a re-analysis of the deposited data

Results flagged for a closer look

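Of 64 sets of 5 libraries examined (each tested copy or family sum in each strain, identical copies once), 1 held a library far from the other 4. Chance flags about 1 set in 20, so 1 of 64 is not more than chance would give. *PAU2* had 0.44 CPM in BY *UBR1* -469A>T replicate 2, from 38.3 counts, against 0.54 to 0.56 CPM in the 4 other libraries of that strain. The gap made up 0.79 of the whole range, above the critical share of 0.71.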

How the results depend on the processing

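Of the 36 members tested, 1 was called. This became 0 without surrogate variables, with 1 surrogate variable, with a replicate block and 2 surrogate variables, and at an adjusted p under 0.05. It became 2 with a replicate block alone (*YRF1-6*, and *YRF1-4* at -0.17 with adjusted p = 0.048) and 3 with 3 surrogate variables (*YRF1-6*, *COS5* and *COS7*). Leaving out 1 library gave 0 to 5 calls. There were 0 without BY *UBR1* -469A>T replicate 1 or BY replicate 5, 2 without BY replicate 2 or 3, 3 without BY replicate 1 (*YRF1-6*, *COS7* and *COS111*), and 5 without BY *UBR1* -469A>T replicate 5 (*YRF1-6*, *COS1*, *COS5*, *COS7* and *COS8*). The replicate numbers were not taken to pair the cultures, since deviations of same-numbered libraries correlated from -0.010 to 0.72 and 2 of 5 edited libraries correlated best with their own number. Edited replicate 4 was nearly tied, at 0.5786 with BY replicate 4 and 0.5797 with BY replicate 5. These correlations do not settle whether the numbers pair the cultures. Transcripts called in all (1269) ran from 0 without surrogate variables to 2373 with the replicate block alone. They numbered 43 with 1 surrogate variable and with the replicate block and 2 surrogate variables, 756 at an adjusted p under 0.05, 329, 699 and 801 without BY *UBR1* -469A>T replicates 2, 3 and 4, and 246 without BY replicate 5. The cause of these changes was not tested.

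The log2 fold changes of the sums kept within the spread between libraries except as summed TPM (*PAU* -0.19, *COS* -0.13, *YRF1* -0.23) and, for *COS*, with the replicate block and 2 surrogate variables (0.14). Some values changed sign. Without surrogate variables *PAU23* was at -0.046, *COS6* at -0.019, *COS2* and *COS3* at -0.051 and *YRF1-4* at -0.17. With the replicate block alone they were at -0.044, -0.018, -0.047 and -0.17. With the replicate block and 2 surrogate variables *YRF1-6* kept its sign at 0.067 (adjusted p = 0.95), while *PAU24* was at -0.35, *COS8* at 0.44 (main value -0.26), *COS111* at 0.086, *YRF1-4* at -0.062, and *YRF1-3* and *YRF1-7* at 0.17 (main value -0.15). *PAU24* was at -0.14 with 1 surrogate variable, and at -0.00087 by the upper quartile, where *COS6* was at -0.00097. *COS111* was at 0.023 with no minimum count and *YRF1-4* at -0.021 with a minimum of 100.

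Leaving out 1 library, values ran from -0.027 to 0.066 for *PAU23*, -0.27 to 0.092 for *PAU7*, -0.13 to 0.024 for *PAU6* and *PAU18*, -0.23 to 0.076 for *PAU24*, -0.0075 to 0.030 for *COS6*, -0.0029 to 0.054 for *COS2* and *COS3*, -0.23 to 0.0025 for *COS111*, -0.0015 to 0.047 for *YRF1-4* and -0.072 to 0.010 for *YRF1-1*, *YRF1-5* and *YRF1-8*. They ran from -0.45 to -0.18 for *COS8*, -0.78 to -0.33 for *COS12*, -0.21 to -0.073 for *YRF1-3* and *YRF1-7*, and 0.36 to 0.65 for *YRF1-6*. Counts of 64.1 or fewer per library stand behind *PAU24*, and of 48 or fewer behind *PAU7*.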
